A study of Mus musculus with 9 samples.

Results

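The genes described here are 62 members of a gliosis panel, a list of genes linked to reactive glia that the study compiled as a table for the muscularis externa (ME) of mice after intestinal manipulation (IM). They are the panel genes whose symbol was absent from the deposited table of changed genes, less a fixed set of 44 names. The panel held 109 genes, of which 22 stood in the changed table, 25 more were among the 44 names, and 62 genes with 93 RefSeq transcripts were left. Both tables together held 531 genes.

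ME of the small bowel, the muscle coat with its nerve ganglia, was taken from BL6 mice aged 8 to 12 weeks. The 9 libraries fell into 3 groups of 3, namely Control, IM3h (3 h after IM) and IM24h (24 h after IM). IM is a standardized handling of the bowel that models postoperative ileus. Controls were sham operated according to the labels, but naive according to the table headers and the study's text on this RNA-Seq. Which applies was not resolved. With naive controls, differences due to the laparotomy and to IM cannot be told apart. Nothing in the labels says that each library was a separate mouse. All IM3h libraries carry numbers of another series than the remaining libraries, so any technical difference between the number series cannot be told apart from the early time point.

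Values are the authors' group means of normalized counts from 3′ RNA-Seq. No values per library were used, so no spread, error or test can be given for any of the differences below, and the depth per library is unknown. A group mean is therefore said to be higher or lower, past a fold of 1.5 or within it, as a description alone. The sum of normalized counts over all libraries, here the total, shows how much signal a value rests on. It ranged from 12.7 to 7043 among the 62 genes with a median of 221, and 39 genes had a total of at least 90. Each gene was read from its transcript with the largest total.

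Gliosis is the reactive state of glia, in which astrocytes of the brain enlarge, take up new filament and matrix programmes and can display immune molecules. Enteric glia, which ensheath neurons in the gut wall, are their peripheral counterparts. ME also holds smooth muscle, fibroblasts, neurons, vessels and macrophages, and the panel genes are expressed by many of these cells. In such bulk tissue a change in the number of cells of a type and a change in RNA per cell cannot be told apart.

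Markers of cell types were read where listed. Only panel genes and changed genes are listed, so these markers cannot check the tissue label, and Myl9, Hspb6 and Nes were listed only as panel genes. The smooth muscle genes Myl9 and Hspb6 had group means of 2414 and 331 normalized counts in Control, and of the enteric glia genes Gfap and Nes were listed. Of 10 monocyte and macrophage markers 7 were listed, with a summed group mean of 31.4 in Control, 48.2 at IM3h and 248 at IM24h. Of 7 neutrophil markers 4 were listed, summing to 3.80, 17.3 and 239 in that order. Of 8 epithelial markers 5 were listed, and their sum was 224 in Control, 485 at IM3h and 63.4 at IM24h. The summed myeloid markers were thus highest at IM24h and the epithelial sum at IM3h, and no listed marker was at 0. Single markers differed from their sums, since Cd14 was highest at IM3h (1.99, 10.9 and 7.38), Csf1r and Mmp9 were lower than Control at IM3h, and Lcn2 alone made up 192 of the neutrophil sum at IM24h. Of these 16 markers 14 came from the changed table, which was itself selected by fold, and the part of such cells in the results below was not tested.

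At IM3h the 62 genes were divided. Their median log2 ratio against Control was 0.10, with 19 genes past 1.5-fold higher and 14 past 1.5-fold lower. Of all 109 panel genes 45.9% were higher and 19.3% lower in that contrast, with a median of 0.50. At IM24h most were above Control, with 40 genes higher, 3 lower and a median log2 ratio of 0.97, against 67.9% higher, 9.17% lower and a median of 1.29 in the panel. Between the 2 times after IM, 31 genes were higher at IM24h than at IM3h and 4 were lower (median 0.58), where the panel had 43.1% higher, 20.2% lower and a median of 0.44. The 3 contrasts share their groups and are not independent of each other.

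A smaller range than in the panel is built into the choice of these genes. Every transcript of the changed table differed at least 2-fold in all 3 contrasts, and none of the 93 transcripts described here did. Nearest below that line was Prim1, whose smallest fold over the 3 contrasts was 1.94, followed by Tgfb1 at 1.84. Nearest above it among panel genes in the changed table were Col5a2 at 2.0 and Pvr at 2.01. The panel values are thus a frame for reading the counts, and nothing about the members follows from them.

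**Figure D1:**
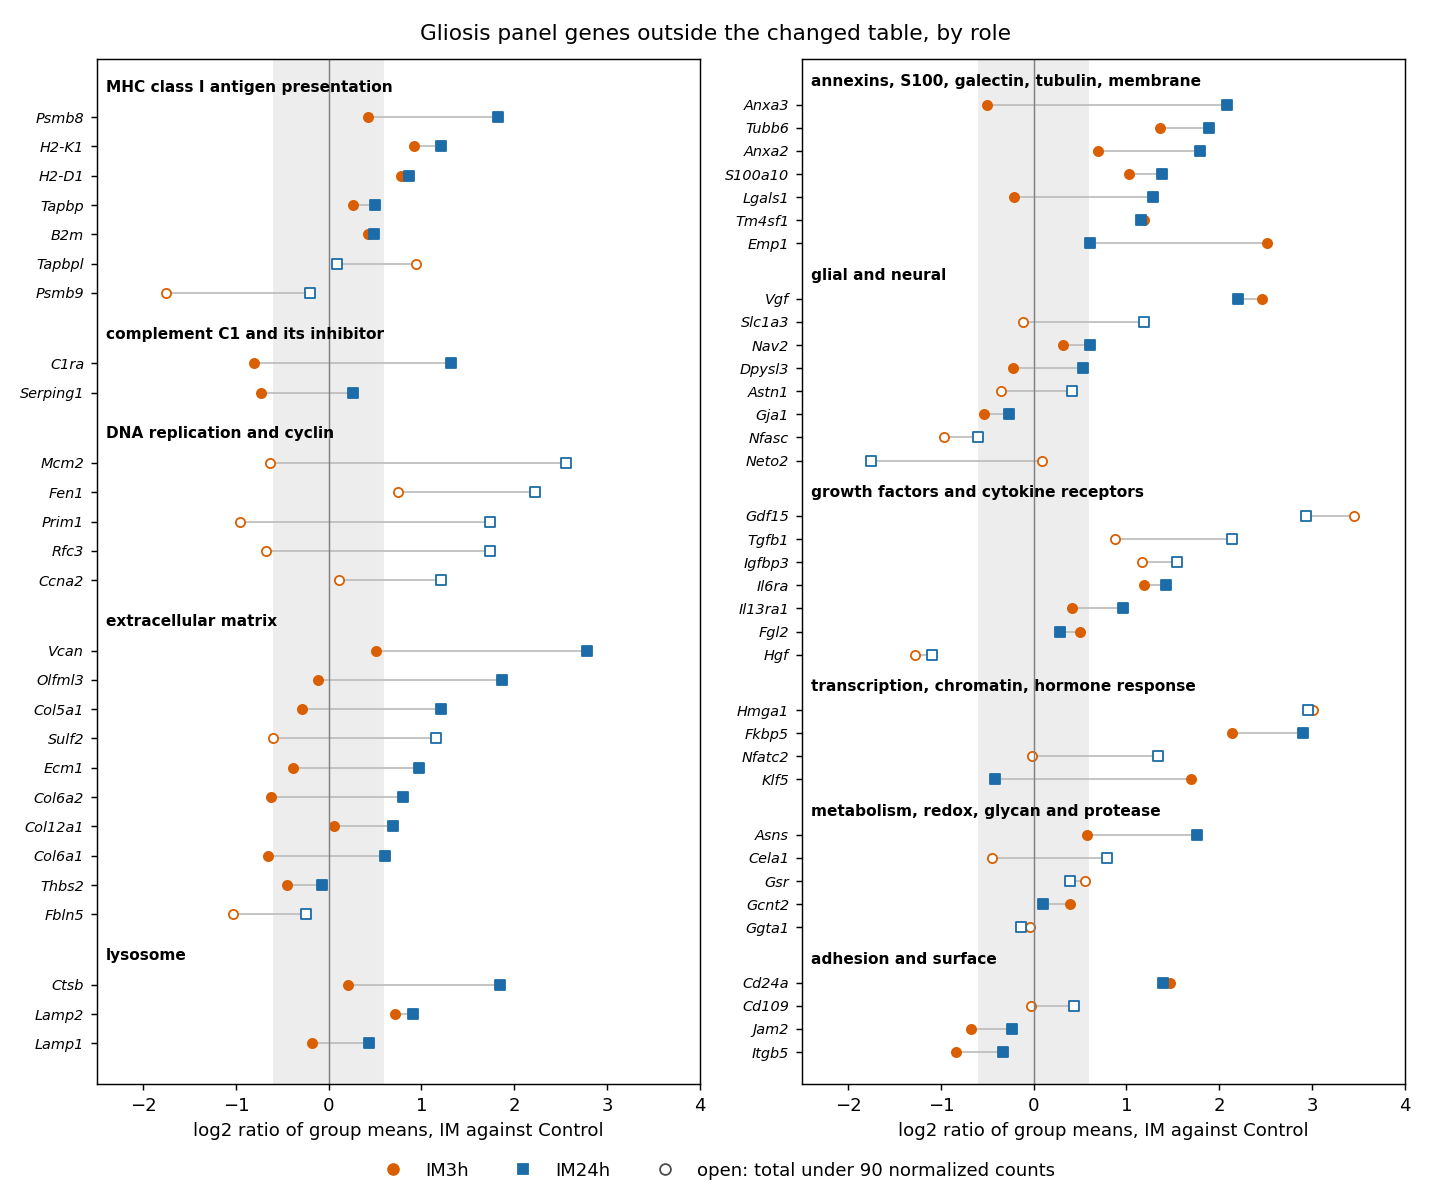
Log2 ratio of the group mean at IM3h (circles) and IM24h (squares) to Control for all 62 genes, arranged by role, each from 3 libraries a group and with no error available. The grey band marks a fold of up to 1.5 either way, and open symbols mark genes with a total under 90. Matrix genes lie left of or near 0 at IM3h and mostly right of the band at IM24h, whereas Gdf15, Hmga1, Emp1 and Vgf lie farthest right at IM3h.

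Read over both times against Control, 17 genes were higher at IM3h and IM24h and 16 were higher at IM24h with IM3h within 1.5-fold. A further 7 genes, namely C1ra, Col6a1, Col6a2, Mcm2, Prim1, Rfc3 and Sulf2, were lower at IM3h and higher at IM24h. With a pseudocount of 1, Mcm2, Prim1, Rfc3 and Sulf2 were within 1.5-fold at IM3h, which left C1ra, Col6a1 and Col6a2 with this pattern. Klf5 and Tapbpl were higher at IM3h alone, and Fbln5, Itgb5, Jam2, Psmb9 and Serping1 were lower at IM3h alone. Hgf and Nfasc were lower at both times and Neto2 was lower at IM24h alone. The remaining 12 genes stayed within 1.5-fold at both times. The whole panel was not counted in these joint patterns, so the counts describe these genes alone.

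**Figure D2:**
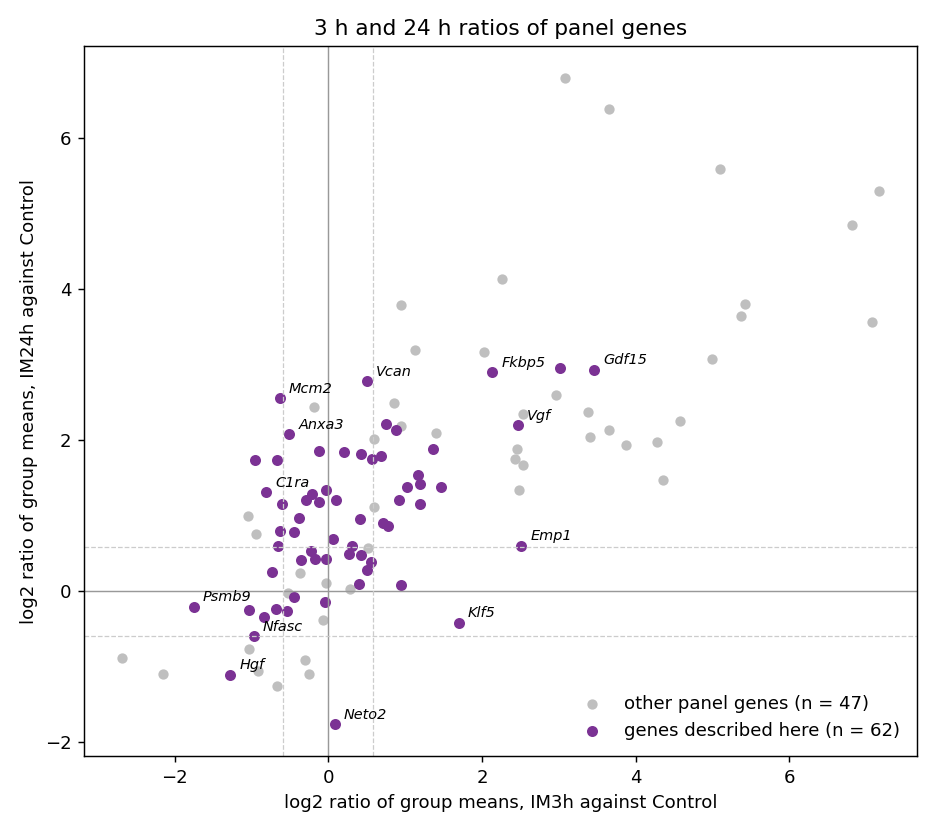
Log2 ratio of group means at IM3h (x axis) and IM24h (y axis) to Control, 1 point a gene, for the 62 genes described here and for the 47 other panel genes, with dashed lines at 1.5-fold. Mcm2 and C1ra sit above 0 on the y axis and below 0 on the x axis, Klf5 the opposite way, and the highest ratios at either time belong to other panel genes, while Neto2 has the lowest at IM24h.

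Antigen presentation by MHC class I, in which peptides cut by the proteasome are loaded onto a heavy chain with its light chain and shown to T cells, was represented by 7 genes. Promoters of its light chain gene B2m and of the heavy chain genes H2-D1 and H2-K1 are shown because these genes encode the presented molecule itself and their windows, unlike those of Psmb8, Psmb9 and Tapbp, held interferon-type or NF-kB-type letters. The sequences are from RefSeq for GRCm38.p6 and run 5′ to 3′ on the gene's strand over the 250 bases before the annotated start, at chr2:122147437-122147686 (+ strand) for B2m, chr17:35262844-35263093 (+ strand) for H2-D1 and chr17:34000348-34000597 (- strand) for H2-K1. Capitals mark matches on either strand to GGGATTCCC, GAAANNGAA, GAANTGAAA or CCAAT.
B2m: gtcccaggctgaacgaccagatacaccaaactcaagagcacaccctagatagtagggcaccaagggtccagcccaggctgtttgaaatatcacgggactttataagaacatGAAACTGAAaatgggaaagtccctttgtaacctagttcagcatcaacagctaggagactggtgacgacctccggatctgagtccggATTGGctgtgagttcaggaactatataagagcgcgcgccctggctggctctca
H2-D1: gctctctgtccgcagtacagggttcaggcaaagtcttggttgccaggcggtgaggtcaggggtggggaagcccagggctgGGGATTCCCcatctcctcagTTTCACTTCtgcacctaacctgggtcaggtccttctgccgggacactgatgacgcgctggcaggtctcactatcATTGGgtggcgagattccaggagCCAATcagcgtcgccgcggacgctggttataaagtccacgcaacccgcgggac
H2-K1: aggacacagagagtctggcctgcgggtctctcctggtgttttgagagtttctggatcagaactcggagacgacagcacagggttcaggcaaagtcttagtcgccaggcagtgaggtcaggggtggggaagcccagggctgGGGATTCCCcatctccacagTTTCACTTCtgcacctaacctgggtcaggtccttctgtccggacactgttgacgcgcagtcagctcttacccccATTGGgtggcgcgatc

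GGGATTCCC is a form of the NF-kB motif, the GAAA-type letters are forms of interferon response elements, and CCAAT is a common promoter box. Matches to GGGATTCCC and GAANTGAAA stood in both heavy chain windows and those to GAAANNGAA in B2m, with no overlap between motifs. Elsewhere among the genes described here, GGGATTCCC also stood in the window of Nfatc2, and GAAANNGAA in those of Lamp1 and Tm4sf1. Among 32851 mouse promoter windows of this length 0.301% held GGGATTCCC, 1.5% GAANTGAAA, 7.13% GAAANNGAA and 33.8% CCAAT. Placed with a shift of 60 bases, the H2-D1 and H2-K1 windows were identical at 166 of 190 bases (87.4%), with a longest identical run of 47. Of the 62 genes 46 had a promoter entry, among them 6 of the 7 antigen presentation genes, and Psmb8, Psmb9 and Tapbp held none of the first 3 motifs. A match is a description of letters and does not show binding.

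B2m had group means of 627 normalized counts in Control, 844 at IM3h and 878 at IM24h, 1.35-fold and 1.40-fold higher than Control. For H2-D1 they were 94.7, 162 and 172, or 1.71-fold and 1.82-fold higher. H2-K1 gave 73.6, 139 and 170, or 1.89-fold and 2.31-fold higher. In all 3 genes the mean was already higher at IM3h, and the step from IM3h to IM24h was 1.22-fold or less. The 2 heavy chains are similar in sequence, but in GENCODE M21 only 2 of 287 windows of 50 bases at the 3′ ends of H2-K1 transcripts also occurred in H2-D1. For H2-D1, 43 of 251 such windows (17.1%) occurred in transcripts of other genes, so its value is less certain.

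The peptide supply genes were less uniform. Psmb8, a catalytic subunit of the immunoproteasome, had means of 12.8, 17.1 and 45.2 in Control, IM3h and IM24h, so that it was 3.54-fold higher at IM24h and within 1.5-fold at IM3h. Psmb9, another catalytic subunit of that particle, was 3.37-fold lower at IM3h (2.85 against 0.846) and near Control at IM24h (2.48). These 2 genes lie side by side in the genome, with Tap1 alone between them among coding genes, yet their means did not run in parallel. The total of Psmb9 was only 18.5, and with a pseudocount of 1 its log2 ratio at IM3h was -1.06 in place of -1.75.

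Tapbp, the peptide-loading protein tapasin, had means of 40.9, 49.2 and 57.7, 1.20-fold and 1.41-fold higher than Control at IM3h and IM24h. Tapbpl, a related peptide editor, was 1.92-fold higher at IM3h (3.91 against 7.50) and near Control at IM24h (4.15). Its total was only 46.7, and with a pseudocount of 1 its log2 ratio at IM3h was 0.79 in place of 0.94. In all, 3 of the 7 genes were higher and 1 was lower at IM3h, and 3 were higher at IM24h. Panel shares were 45.9% higher and 19.3% lower at IM3h, and 67.9% higher at IM24h. Of 12 further antigen presentation genes on the list used, among them Tap1, Tap2 and Nlrc5, none was in either table, so they were not analysed here.

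The 2 complement genes were both lower at IM3h, and 1 was higher at IM24h. Panel shares were 19.3% lower at IM3h and 67.9% higher at IM24h. C1ra, a protease that starts the classical complement cascade, had means of 22 in Control, 12.6 at IM3h and 54.8 at IM24h, 1.75-fold lower and then 2.49-fold higher than Control. Serping1, the inhibitor of that protease, gave 128, 77.3 and 154, 1.66-fold lower at IM3h and 1.20-fold higher at IM24h. Both thus had their lowest mean at IM3h and their highest at IM24h. Of 8 further complement genes 2 were listed, C3 and C4b, and both were also lower at IM3h. C3, on which the complement pathways converge, was 6.42-fold lower at IM3h and 1.84-fold lower at IM24h (175, 27.3 and 95.4). C4b was lower at IM3h and 1.69-fold higher at IM24h, like C1ra.

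Of the 10 extracellular matrix genes 4 were lower and none higher at IM3h, 8 were higher and none lower at IM24h, and all 10 had a higher mean at IM24h than at IM3h, 9 of them past 1.5-fold. The median log2 ratio of the group was -0.42 at IM3h and 0.88 at IM24h. Panel shares were 19.3% lower at IM3h, 67.9% higher at IM24h and 43.1% higher at IM24h than at IM3h.

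Collagen VI, a beaded filament collagen around cells of muscle and nerve, was represented by 2 of its chains. Col6a1 had means of 71.5, 45.6 and 109 in Control, IM3h and IM24h, and Col6a2, its direct coding neighbour in the genome, 65.2, 42.3 and 113. Both were lower at IM3h (1.57-fold and 1.54-fold) and higher at IM24h (1.52-fold and 1.74-fold), close to the 1.5-fold line on either side. Col5a1, a chain of a collagen that regulates fibril width, was within 1.5-fold at IM3h and 2.32-fold higher at IM24h (36.1, 29.6 and 83.7). Col12a1, a fibril-associated collagen, was 1.62-fold higher at IM24h and level with Control at IM3h (14.9, 15.5 and 24.1).

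Vcan, a large chondroitin sulfate proteoglycan of provisional matrix, had the highest ratio of the group. Its means were 3.63 in Control, 5.16 at IM3h and 24.9 at IM24h, 6.87-fold higher than Control at the later time. Olfml3, a secreted glycoprotein, was 3.64-fold higher at IM24h (18.7, 17.3 and 68.2). Sulf2, which trims sulfate groups from heparan sulfate outside the cell, was 2.24-fold higher at IM24h (5.99, 3.94 and 13.4), and Ecm1, a secreted matrix protein, 1.96-fold higher (18.5, 14.2 and 36.2).

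Fbln5 and Thbs2 were not above Control at either time. Fbln5, needed for elastic fibres, was 2.04-fold lower at IM3h and near Control at IM24h (6.56, 3.21 and 5.54). Fbln5 and Sulf2 had totals of 46.0 and 69.9, below 90. Thbs2, a matricellular protein, stayed within 1.5-fold at both times (37.4, 27.3 and 35.7). Of 10 further matrix genes 6 were listed, of which 2 were higher and 3 lower at IM3h, and 4 higher and 2 lower at IM24h. Those 2 lower at IM24h were Dcn and Ltbp4.

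**Figure D3:**
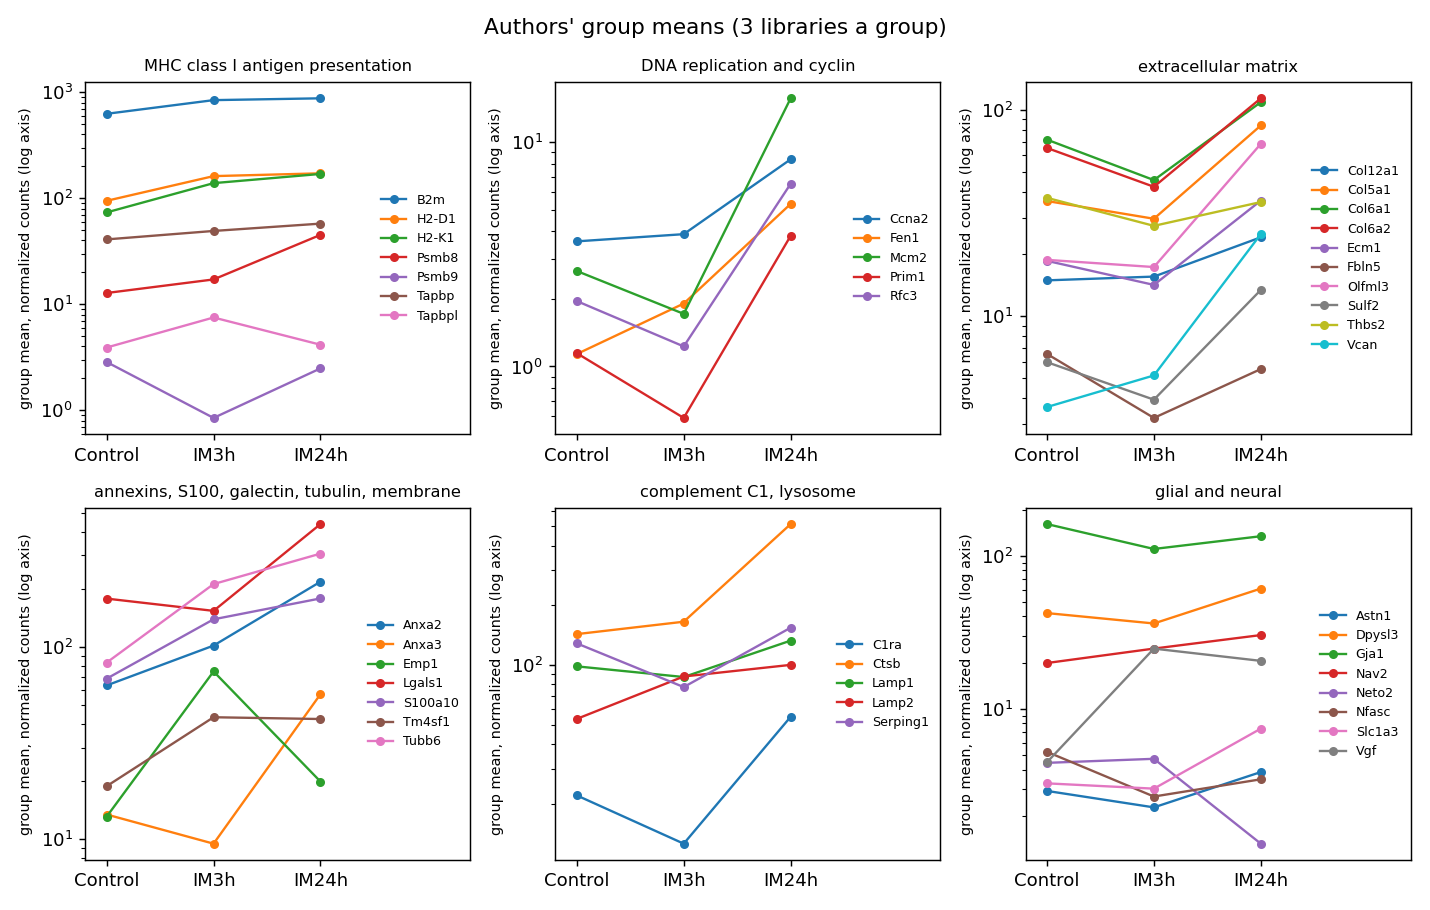
The authors' group means of normalized counts (log axis) in Control, IM3h and IM24h for 6 sets of genes, 1 line a gene, each point the mean of 3 libraries with no error available. B2m, H2-D1 and H2-K1 are higher at IM3h than in Control and nearly level from there, Mcm2 and most matrix genes are lowest at IM3h and highest at IM24h, and Emp1 is highest at IM3h.

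DNA replication genes had low levels and high ratios at IM24h. All 5 were higher than Control at that time and all 5 were higher than at IM3h, with a median log2 ratio of 1.74 against Control. For the panel the shares higher in these contrasts were 67.9% and 43.1%. Mcm2, a subunit of the replicative helicase, had means of 2.66 in Control, 1.72 at IM3h and 15.7 at IM24h, 5.89-fold higher than Control. Fen1, which removes flaps of Okazaki fragments, was 4.67-fold higher at IM24h (1.14, 1.91 and 5.30).

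The primase subunit gene Prim1 was 3.34-fold higher at IM24h (1.15, 0.590 and 3.82) and Rfc3, part of the clamp loader, 3.33-fold higher (1.96, 1.23 and 6.52). Ccna2, the cyclin of S phase and G2, was 2.32-fold higher (3.61, 3.89 and 8.38). Helicase, primase, clamp loader, flap nuclease and cyclin thus all had their highest mean at IM24h. At IM3h, 3 of the 5 were past 1.5-fold lower and Fen1 was higher, but all these early differences rest on means below 3. With a pseudocount of 1 none of the 5 was past 1.5-fold at IM3h, whereas the log2 ratios at IM24h were still between 1.02 for Ccna2 and 2.19 for Mcm2. All 5 totals were below 90. Of 15 further cell cycle genes 2 were listed, and both Cdk1 (3.39-fold) and Birc5 (5.02-fold) were higher at IM24h. Both stand in the changed table, as do 11 of the 22 further pathway genes listed, and so were picked by fold. Summed myeloid markers were also far higher at IM24h, as given above, and which cells carried the replication transcripts was not tested.

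Among annexins, S100 and small membrane proteins all 7 genes were higher at IM24h and 5 of 7 at IM3h. The whole panel had 67.9% higher at IM24h and 45.9% at IM3h. Anxa2, a membrane-binding protein, and S100a10, its partner in a heterotetramer, were both higher at each time. The means of Anxa2 were 63.2, 102 and 219 in Control, IM3h and IM24h (1.61-fold and 3.47-fold higher), and those of S100a10 were 68.5, 140 and 179 (2.04-fold and 2.62-fold). S100a10 thus had the higher ratio of the pair at IM3h and Anxa2 at IM24h.

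Tubb6, a beta-tubulin, was 2.56-fold higher at IM3h and 3.69-fold higher at IM24h (83.1, 213 and 307). Tm4sf1, a small membrane protein of endothelium and other cells, was 2.29-fold and 2.24-fold higher (18.9, 43.2 and 42.2). Lgals1, the lectin galectin, and Anxa3 were late genes, with means within 1.5-fold of Control at IM3h. Lgals1 was 2.44-fold higher at IM24h (179, 154 and 437) and Anxa3 4.23-fold higher (13.4, 9.48 and 56.9). Lgals3, another galectin and the only listed gene of 5 further ones, was 2.19-fold and 9.21-fold higher.

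Emp1, an epithelial membrane protein gene, went the other way in time. Its means were 13.1 in Control, 74.7 at IM3h and 20.0 at IM24h, 5.70-fold higher at IM3h and 3.74-fold lower at IM24h than at IM3h. At IM24h it stood just past the line at 1.52-fold, and with a pseudocount of 1 its log2 ratio there was 0.57, within the line. The 3 transcripts of Emp1 gave similar ratios, from 5.70-fold to 6.43-fold at IM3h, though values of its single transcripts are uncertain, as given below.

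The lysosome genes were highest at IM24h. Ctsb, a lysosomal cysteine protease, had means of 143, 165 and 513, 3.59-fold higher at IM24h and 1.15-fold higher at IM3h. The membrane glycoprotein gene Lamp2 was 1.64-fold and 1.87-fold higher at the 2 times (53.5, 87.4 and 100.1), and Lamp1 stayed within 1.5-fold of Control (98.4, 86.9 and 133). Ctss and Cd68, the listed genes among 5 further lysosome genes, were higher at both times, and both are typical of myeloid cells, whose summed markers were also highest at IM24h. Their part was not tested.

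Glial and neural genes had no common direction. Vgf, the precursor of secreted neuropeptides, had means of 4.46 in Control, 24.7 at IM3h and 20.5 at IM24h, 5.53-fold and 4.60-fold higher. Slc1a3, the glutamate transporter of astrocytes, was 2.28-fold higher at IM24h and near Control at IM3h (3.25, 3.00 and 7.40). Gja1, a gap junction protein of astrocytes and muscle, was within 1.5-fold at both times with the highest mean in Control (161, 110 and 134).

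Nfasc, which anchors axon domains, was 1.96-fold lower at IM3h and 1.51-fold lower at IM24h (5.22, 2.66 and 3.45). With a pseudocount of 1 its log2 ratio at IM24h was -0.48, within the line, and its transcript NM_001160318 was 1.14-fold higher at IM3h. Neto2, an auxiliary subunit of kainate receptors, was near Control at IM3h and 3.37-fold lower at IM24h (4.42, 4.70 and 1.31), and its 3 transcripts were lower by 3.37-fold to 5.66-fold. Values of single Neto2 transcripts are uncertain, as given below. Nav2, a neuron navigator gene, stood just past the line at IM24h at 1.52-fold (19.9, 24.7 and 30.2), and with its transcripts summed it was 1.32-fold. Dpysl3, a phosphoprotein of growing axons, was within 1.5-fold of Control at both times and 1.69-fold higher at IM24h than at IM3h (42.1, 36.0 and 60.8). With its transcripts summed it was 1.56-fold higher than Control at IM24h, past the line. Astn1, an adhesion protein of migrating neurons, stayed within 1.5-fold of Control. Neto2, Nfasc, Slc1a3 and Astn1 all had totals below 90. Of 6 further glial and neural genes 3 were listed, and Gfap, the filament protein of reactive glia, was 4.06-fold and 9.0-fold higher. Cntn1 was lower at both times and Gap43 within 1.5-fold.

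Of 7 receptors and secreted factors 4 were higher at IM3h and 5 at IM24h. Shares of the panel that were higher came to 45.9% at IM3h and 67.9% at IM24h. Il6ra, the ligand-binding receptor chain for IL-6, had means of 6.59, 15.0 and 17.7 in Control, IM3h and IM24h, 2.28-fold and 2.68-fold higher. Il13ra1, a receptor chain for IL-13 and IL-4, was within 1.5-fold at IM3h and 1.95-fold higher at IM24h (43.0, 57.3 and 83.9). Osmr, a signalling chain for oncostatin M and the only listed gene of 7 further ones, was 7.78-fold and 6.08-fold higher.

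Gdf15, a stress-induced member of the TGF-beta family, had the highest ratio of the 62 genes at IM3h. Its means were 0.455, 5.0 and 3.48, an 11-fold and 7.66-fold difference from a very low Control level, and with a pseudocount of 1 its log2 ratio at IM3h was 2.04 in place of 3.46. Tgfb1, the cytokine itself, was 1.84-fold and 4.39-fold higher (1.80, 3.30 and 7.88), and Igfbp3, a carrier of insulin-like growth factors, 2.24-fold and 2.91-fold (2.11, 4.74 and 6.15). Hgf, hepatocyte growth factor, was lower at both times, by 2.42-fold and 2.14-fold (4.84, 2.0 and 2.26). Fgl2, a fibrinogen-like protein, stayed within 1.5-fold. Of this group Gdf15, Tgfb1, Igfbp3 and Hgf had totals below 90.

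Of the transcription and hormone response genes, Fkbp5 had the highest total. This cochaperone is a textbook target of the glucocorticoid receptor. Its means were 7.95 in Control, 34.9 at IM3h and 59.4 at IM24h, 4.39-fold and 7.47-fold higher. Tsc22d3, another glucocorticoid target on the list, was in neither table and was not analysed here. Hmga2, the only listed gene of 4 further ones, was higher at both times.

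Klf5, a zinc finger factor of proliferating gut epithelium and of injured smooth muscle, had means of 14.5, 47.0 and 10.9. It was 3.25-fold higher than Control at IM3h and 4.34-fold lower at IM24h than at IM3h, so its peak coincided with that of the epithelial marker sum given above (224, 485 and 63.4), whose part was not tested. Hmga1, a chromatin architecture protein, was 8.05-fold and 7.77-fold higher, from 0.516 to 4.15 and 4.01. All windows of 50 bases at its 3′ end also occur in the copy Hmga1b, so reads of these cannot be separated. Nfatc2, a calcium-regulated factor, was 2.53-fold higher at IM24h on a total of 12.7, the lowest of all 62.

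Metabolic and glycan genes, each read from its main transcript, were within 1.5-fold of Control at IM3h. Asns (1.48-fold) and Gsr (1.47-fold) stood just under the line, and Gcnt2 was 1.75-fold higher at IM3h with its transcripts summed. Asns, which makes asparagine and belongs to the amino acid response, had means of 8.02, 11.9 and 27.1, 3.38-fold higher at IM24h. Cela1, an elastase, was 1.73-fold higher at IM24h (3.60, 2.63 and 6.23). On their main transcripts Gsr, glutathione reductase, Ggta1 and Gcnt2 stayed within the line at both times. Ggta1, which adds the alpha-galactose cap of mouse glycans, was among the nearest to no change on its main transcript (5.99, 5.81 and 5.44). At IM24h its transcript NM_010283 was 1.53-fold higher and NM_001308300 1.56-fold lower, though values of its single transcripts are uncertain, as given below. Cela1, Gsr and Ggta1 all had totals below 90. Of 6 further genes 2 were listed, the oxidative stress genes Srxn1 and Hmox1, and both were higher at both times. Hmox1 was 41.3-fold and 12.6-fold higher, from a Control mean of 1.19. With a pseudocount of 1 its log2 ratios were 4.52 and 2.86. Srxn1 and Hmox1 stand in the changed table and so were picked by fold, so their ratios cannot be set against those of the group.

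Of the adhesion genes, Cd24a, a heavily glycosylated surface protein of epithelium, neurons and leukocytes, was 2.76-fold and 2.62-fold higher (60.0, 166 and 157). Its mean was nearly level between IM3h and IM24h, and the part of epithelial cells and leukocytes in it was not tested. Itgb5, an integrin chain that binds vitronectin, was 1.78-fold lower at IM3h (21.2, 11.9 and 16.8), and Jam2, a junction protein of endothelium, 1.60-fold lower (33.0, 20.6 and 28.0). Both were within 1.5-fold of Control at IM24h. Another Itgb5 transcript, NM_001145884, was 1.27-fold lower at IM3h, within the line. With its transcripts summed, Itgb5 was 1.53-fold lower at that time. Cd109 stayed within the line at both times. Of 4 further adhesion genes 2 were listed, Icam1 and Cd44, and both were higher at both times.

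Summing the transcripts of each gene took 2 genes across the 1.5-fold line at IM3h, 2 at IM24h and 0 between the 2 times. Several counts over all 93 transcripts shifted more, as given at the end. Of the 62 genes 21 had more than 1 transcript in the panel, 52 in all. In 8 of these genes the transcripts had equal ratios at both times to within 0.01 on the log2 scale, so a single isoform's level is uncertain there. In 4 genes, Gcnt2, Ggta1, Nfasc and Vcan, they differed by more than 1 on the log2 scale at 1 of the times or both.

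Gcnt2, a glycosyltransferase that branches blood group I chains, had the widest range among these. Its main transcript NM_023887 was nearly level, with means of 37.0 in Control, 48.7 at IM3h and 39.8 at IM24h. NM_133219 had means of 0.272, 18.0 and 10.3, which is 66.1-fold and 37.7-fold higher than Control, or log2 ratios of 3.90 and 3.15 with a pseudocount of 1. NM_008105 was 1.58-fold higher at IM3h and 2.79-fold lower at IM24h (7.03, 11.1 and 2.52). With its transcripts summed the gene was 1.75-fold higher at IM3h and 1.19-fold at IM24h, so the gene-level value hides transcripts that differ in direction at IM24h.

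For Vcan the highest means at IM24h were those of NM_001134475, given above, and of NM_019389, which was 3.31-fold higher at IM3h and 4.42-fold higher at IM24h (1.46, 4.84 and 6.45). The other 2 transcripts had means of at most 2.13 in every group. Summed over transcripts, Vcan was 1.84-fold higher at IM3h and 4.75-fold higher at IM24h.

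**Figure D4:**
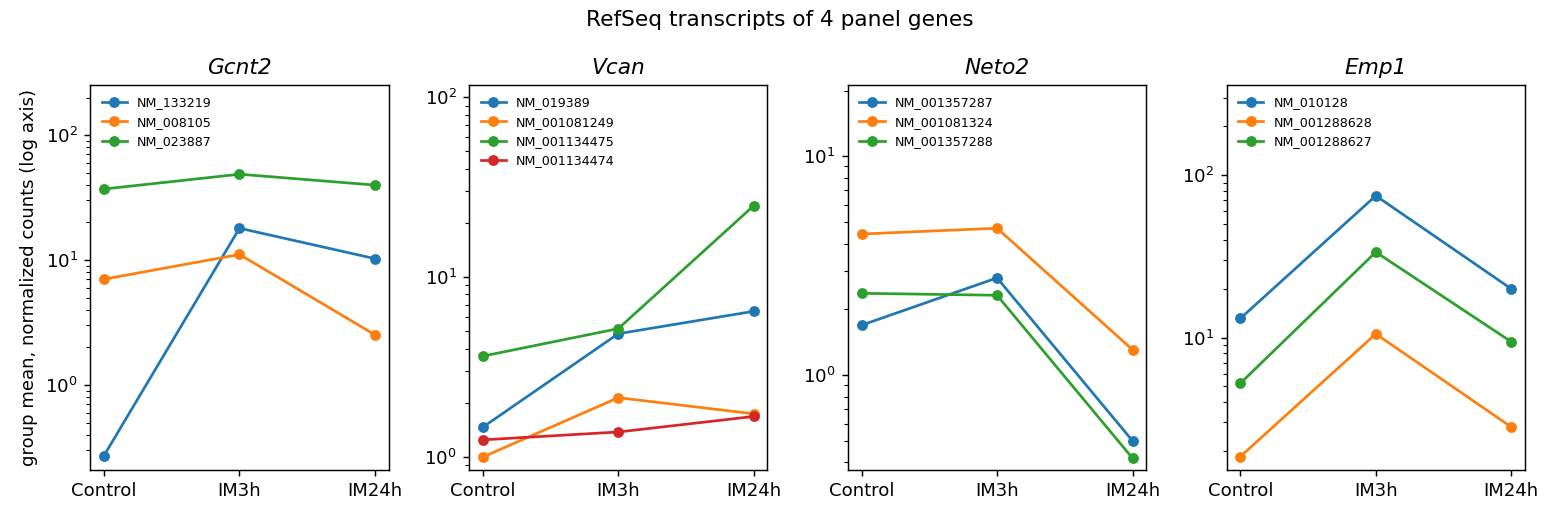
The authors' group means of normalized counts (log axis) in Control, IM3h and IM24h for each RefSeq transcript of Gcnt2, Vcan, Neto2 and Emp1, 1 line a transcript, with no error available. The lines of Emp1 run in parallel, while NM_133219 of Gcnt2 starts at 0.272 and reaches 18.0 at IM3h beside the nearly level NM_023887.

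These counts rest on how much signal is asked for. Among the 39 genes with a total of at least 90, 13 were higher and 6 lower at IM3h with a median log2 ratio of 0.39 in place of 0.10, and 27 were higher and 0 lower at IM24h. Past a fold of 2, 12 genes were higher and 3 lower at IM3h.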

How the data were processed

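RNA from ME was made into libraries with the QuantSeq 3′ kit, which reads transcript ends, and sequenced in 1 lane, as the study states. Partek is the tool that the submitters' processing notes give. The aligner, genome build and normalization are not given in the sources used here. The deposited tables hold, per RefSeq transcript, the authors' least squares group means and the total of normalized counts, an expression signal, and each total equalled 3 times the sum of the 3 means. The tables also hold the authors' fold changes, p-values and FDR for each contrast, and another table their ontology enrichment. These are the study's own findings and were not used, so nothing was tested and no errors are given.

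Ratios of group means were computed in Python 3.11.15 with pandas 2.3.3, without a pseudocount, after the steps were tested on simulated data, and counted past a fold of 1.5, the study's fold. The text gives means for genes with a total of at least 90 that were past 1.5-fold in any contrast, for all antigen presentation and replication genes and for those nearest to no change, and other genes by count, with some low-total genes added after their values were seen. Members, role lists and rule were chosen with earlier results of these data known, and some listed genes are not reported here. RefSeq names (GRCm38.p6) matched 62 of 62 symbols and 93 of 93 transcripts. Windows of 50 bases in the last 300 bases of GENCODE M21 transcripts were searched for in those of other genes, for 61 of the 62 genes. Alternatives were a pseudocount of 1, a total of at least 90, all transcripts, summed transcripts and a fold of 2.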

Additional observations from a re-analysis of the deposited data

How the results depend on the processing

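Without values per library, neither leaving out a library nor another normalization could be run. No paired analysis was possible because the tables hold group means alone. With a total of at least 90, 6 genes were lower at IM3h (median log2 ratio 0.39), 0 were lower at IM24h, and 18 were higher and 2 lower at IM24h than at IM3h, on 39 in place of 62 genes. Counted over all 93 transcripts, 31 were higher at IM3h, 9 were lower at IM24h (median 0.79) and 12 were lower at IM24h than at IM3h (median 0.41). A fold of 2 left 12 higher and 3 lower at IM3h. No gene past 1.5-fold reversed its direction with a pseudocount of 1 or with summed transcripts. The pseudocount brought Fen1, Mcm2, Prim1, Rfc3 and Sulf2 within 1.5-fold at IM3h and Emp1, Nav2 and Nfasc at IM24h, and Astn1 between the 2 times. Summing put Gcnt2 and Vcan past it at IM3h and Dpysl3 at IM24h, and Nav2 within it. Low totals limit all of these, and the counting error is unknown.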
